A study of Mus musculus with 6 samples.

Results

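The genes of sister chromatid cohesion and its release were followed in 6 Eμ-Myc tumors: securin (Pttg1), separase (Espl1) and 7 genes of the cohesin complex (Rad21, Smc1a, Smc3, Stag1, Stag2, Pds5a and Pds5b). These 9 genes were taken by gene name from the 38293 in the deposited table, and all 9 were expressed highly enough to be tested. Pttg1 was chosen because its RNA was higher in miR-146a-deficient tumors, so its difference between genotypes is given here as a description, with no test. The other 8 genes, called partners below, were chosen for their place in the same pathway and were tested.

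RNA-sequencing was done on 4 miR-146a-sufficient tumors (Eμ-Myc miR-146a+/+) and 2 miR-146a-deficient tumors (Eμ-Myc miR-146a-/-) of the C57BL6 strain. The labels call them individual tumors without stating that each came from its own mouse, so p-values measure the spread between these tumors. All 6 mice carried the Eμ-Myc transgene, in which the enhancer of the immunoglobulin heavy chain drives c-Myc in the B-cell lineage, so no group was free of Myc. Sufficient tumors 1 and 2 were from neck nodes of mice aged 18 and 16 weeks, and sufficient tumors 3 and 4 were thymic tumors at 10 weeks. Deficient tumors 1 and 2 were both thymic, at 11 and 10 weeks. All sufficient mice were labelled male and both deficient mice female, so labelled sex and genotype cannot be told apart. The cells were frozen as suspensions with no sort described, so each value is a sum over tumor cells and the host cells among them.

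Cohesin is a ring of Smc1a, Smc3 and Rad21, with a Stag protein bound to Rad21, and it holds sister chromatids together from DNA replication until anaphase. Separase cuts Rad21 to release the chromatids, and securin binds separase and keeps it inactive until the anaphase-promoting complex marks securin for degradation. Outside mitosis cohesin also folds chromatin into loops, among them those of the immunoglobulin loci in B cells. Securin is abundant in dividing cells and was first described as a pituitary tumor transforming gene.

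Because these tumors differ in miR-146a, its mature sequence is shown with the places in the 9 genes that could pair with its seed. RefSeq (GRCm38.p6) places mature miR-146a-5p at chr11:43374435-43374456 on the minus strand, and the capitals mark the seed, bases 2 to 8.

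miR-146a-5p: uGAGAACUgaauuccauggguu

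Matches of 7 bases were sought in the longest annotated 3′UTR of each gene (GENCODE M21 on GRCm38), either to bases 2 to 8 (AGTTCTC) or to bases 2 to 7 followed by A (GTTCTCA). They were present in 3 of the 9 genes, Pds5a, Pds5b and Stag1, and in 20% of 10707 protein-coding genes tested whose 3′UTR is annotated. The 3′UTRs of these 3 genes have 4476, 2842 and 1987 bases, against a median of 1115 over tested genes. The share was not matched for length. The windows below run 5′ to 3′ on the strand of the gene, with the matched letters in capitals, 8 of them at the Pds5b site, which matches both patterns, and 7 at the others. The windows of Pds5a lie at chr5:65608667-65608690 and chr5:65606169-65606192 (minus strand), that of Pds5b at chr5:150808787-150808810 (plus strand) and that of Stag1 at chr9:100957401-100957424 (plus strand).

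Pds5a, base 1515 of the 3′UTR: tcaattagGTTCTCAtagataagt

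Pds5a, base 4013 of the 3′UTR: ggccactcAGTTCTCtcctattac

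Pds5b, base 947 of the 3′UTR: gttaggaaAGTTCTCAttctccat

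Stag1, base 851 of the 3′UTR: caaaaatgGTTCTCAagttatcag

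The 796 bases of the Pttg1 3′UTR held no match, nor did the 3′UTRs of Espl1, Rad21, Smc1a, Smc3 and Stag2. A match is a description of letters and not a measured binding site.

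Pttg1 (ENSMUSG00000020415, chr11:43420250-43426251, minus strand) encodes securin. Levels are given as RPKM, reads per kilobase of gene scaled for library depth. Sufficient tumors 1 to 4 held 3.42, 6.13, 3.22 and 5.90 RPKM of Pttg1, and deficient tumors 1 and 2 held 30.3 and 34.2 RPKM. Both deficient tumors lay far above all 4 sufficient tumors, and neither site nor age ordered the sufficient tumors, since neck and thymic tumors each gave a low and a high value. The group means were 4.67 ± 1.56 RPKM (SD, n = 4) and 32.3 ± 2.78 RPKM (SD, n = 2), a ratio of 6.91. On the log2(RPKM + 1) scale the difference was 2.59 (SE 0.29), and it ran from 1.96 to 2.82 over 17 other ways of processing the data. Among all tested genes, 9.15% were higher in both deficient tumors than in every sufficient tumor, a share that says nothing about Pttg1, which was picked on this contrast.

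Securin took a different place among the 9 genes in the 2 genotypes. Pttg1 had the lowest RPKM of the 9 in each of the 4 sufficient tumors, and ranked 6th in deficient tumor 1 and 5th in deficient tumor 2. Its mean stood at the 38.9 percentile of tested genes in sufficient tumors and at the 82.5 percentile in deficient tumors. Relative to Espl1, whose protein it inhibits, Pttg1 was at 0.157, 0.254, 0.325 and 0.398 times the RPKM in the sufficient tumors, and at 1.513 and 1.502 times in the deficient tumors. Separase RNA thus exceeded securin RNA in every sufficient tumor and was the lower of the pair in both deficient tumors, again a description that rests on the choice of Pttg1.

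**Figure D1:**
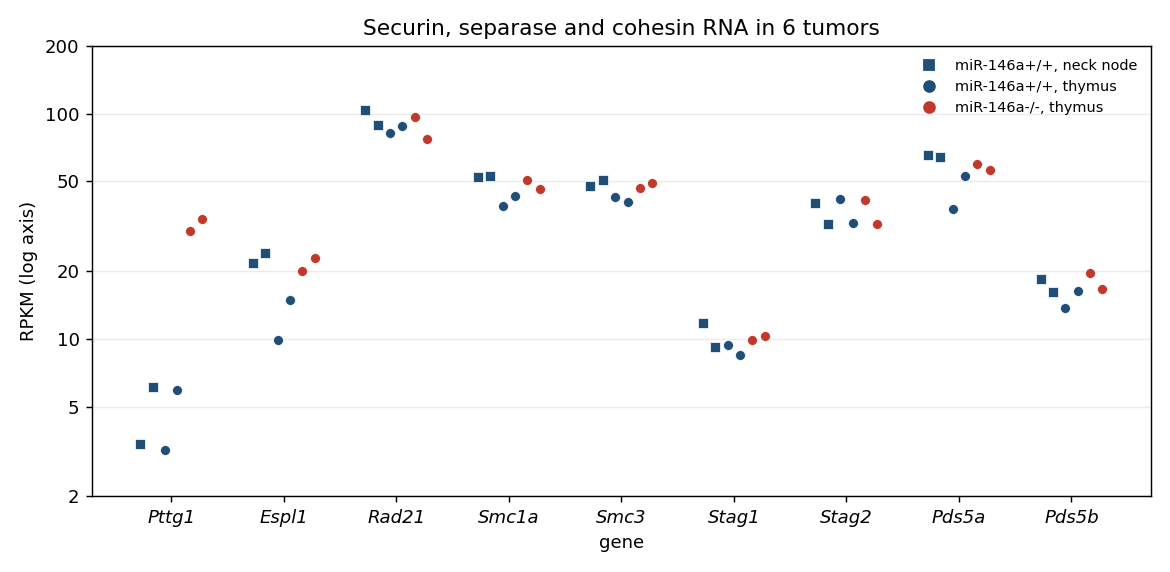
RPKM (log axis) of the 9 genes in each of the 6 tumors; squares are neck node and circles thymic tumors, blue miR-146a+/+ and red miR-146a-/-. Pttg1 is at 3.22 to 6.13 RPKM in the blue tumors and at 30.3 and 34.2 RPKM in the red ones, while red and blue overlap for each of the other 8 genes.

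Pttg1 was also compared between tumor sites, a contrast on which it was not chosen. Among the 4 sufficient tumors its mean was 4.77 RPKM in neck nodes and 4.56 RPKM in the thymus. The log2 difference was 0.057, with a 95% interval of -0.85 to 0.96 and a limma adjusted p of 0.976. The interval reaches well to either side of 0, so a moderate site difference in securin was not detectable with 2 tumors a site.

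The reads behind these values could be gauged roughly. Low RPKM values of single-exon genes fell on steps of whole reads, with 70.7 to 76.5% of them within 1% of a step. With the merged exon length of 2000 bases in GENCODE M21, Pttg1 rested on about 149 to 184 reads in sufficient tumor 1 and 735 to 889 in sufficient tumor 2. It rested on about 166 to 200 reads in sufficient tumor 3, 286 to 347 in sufficient tumor 4, 3095 to 3722 in deficient tumor 1 and 2413 to 2954 in deficient tumor 2. These numbers take the smallest step as 1 read, and they were not checked against library totals. No exon base of Pttg1 is shared with another gene in that annotation.

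Pttg1 and the deleted microRNA lie on the same chromosome and strand. The Mir146 hairpin is at chr11:43374397-43374461, and 45.788 kb separate it from the 3′ end of Pttg1. Mir146 was listed at 0 in all 6 tumors, so its own value does not check the genotype labels. Of the 23 other annotated genes that start within 1 Mb of Mir146, 3 were expressed highly enough to be tested. Slu7, a splicing factor, was at 13.9 ± 0.792 RPKM (SD, n = 4) in sufficient and 15.8 ± 3.49 RPKM (SD, n = 2) in deficient tumors, a log2 difference of 0.16 (limma adjusted p = 0.900). Pwwp2a, a chromatin reader, was at 9.11 ± 1.11 and 10.2 ± 0.875 RPKM, a log2 difference of 0.15 (limma adjusted p = 0.906). Ttc1 was at 21.5 ± 4.94 and 21.7 ± 0.172 RPKM, a log2 difference of 0.044 (limma adjusted p = 0.979). None of these 3 neighbors passed the threshold, and the other 20 stayed at or below 0.0633 RPKM, with 15 of them at 0 in every tumor.

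Separase RNA overlapped between the genotypes. Espl1 (ENSMUSG00000058290, chr15:102296266-102324357, plus strand) encodes the protease that cuts Rad21 at anaphase. Espl1 was at 21.8, 24.2, 9.92 and 14.8 RPKM in sufficient tumors 1 to 4, and in deficient tumors 1 and 2 at 20.02 and 22.8 RPKM. The deficient tumors fell inside the range of the sufficient tumors, close to the neck node tumors and above the thymic ones. The means were 17.7 ± 6.50 (SD, n = 4) and 21.4 ± 1.95 RPKM (SD, n = 2), a log2 difference of 0.33 with a 95% interval of -0.44 to 1.11 (limma adjusted p = 0.893).

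The RNA of all 3 ring proteins also overlapped between the genotypes. Rad21 (ENSMUSG00000022314, chr15:51962240-51991747, minus strand), the subunit that separase cuts, was at 104, 89.0, 82.0 and 88.1 RPKM in the sufficient tumors, against 96.6 and 77.5 RPKM in the deficient ones. The deficient tumors took the second highest and the lowest value, so the groups overlapped. The log2 difference was -0.062, with a 95% interval of -0.53 to 0.40 (limma adjusted p = 0.956).

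Smc1a (ENSMUSG00000041133, chrX:152016428-152062694, plus strand), an arm of the ring, was at 52.5, 52.9, 38.8 and 43.1 RPKM in the sufficient tumors, against 50.5 and 46.2 RPKM in the deficient ones. Both deficient values lay between the neck node and the thymic values of the sufficient tumors. The log2 difference was 0.056, with a 95% interval of -0.42 to 0.54 (limma adjusted p = 0.963). Smc3 (ENSMUSG00000024974, chr19:53600398-53645833, plus strand), the other arm, was at 47.9, 50.8, 42.6 and 40.6 RPKM against 46.6 and 49.4 RPKM. Again the deficient tumors sat inside the sufficient range, and the log2 difference was 0.082 with a 95% interval of -0.36 to 0.52 (limma adjusted p = 0.938).

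Stag1 and Stag2 are alternative subunits that bind Rad21, each found in its own population of cohesin rings. Stag1 (ENSMUSG00000037286, chr9:100597798-100959375, plus strand) was at 11.7, 9.20, 9.41 and 8.45 RPKM in the sufficient tumors, against 9.89 and 10.3 RPKM in the deficient ones. Stag2 (ENSMUSG00000025862, chrX:42149317-42277185, plus strand), a gene often mutated in human cancers, was at 40.01, 32.3, 41.9 and 32.8 RPKM against 41.2 and 32.5 RPKM. For both genes the deficient tumors were neither the highest nor the lowest of the 6. The log2 differences were 0.060 (95% interval -0.44 to 0.56, limma adjusted p = 0.963) for Stag1 and 0.0031 (95% interval -0.49 to 0.49, limma adjusted p = 0.999) for Stag2. The 7-base match of Stag1 to miR-146a thus stood beside a difference within the spread of the sufficient tumors.

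Pds5a and Pds5b bind the ring and take part in both keeping it on chromatin and letting it go. Pds5a (ENSMUSG00000029202, chr5:65605721-65698273, minus strand) was at 65.8, 63.99, 37.8 and 53.0 RPKM in the sufficient tumors, against 59.8 and 56.3 RPKM in the deficient ones. The deficient tumors lay below both neck node tumors and above both thymic sufficient tumors. Pds5b (ENSMUSG00000034021, chr5:150673739-150810690, plus strand) was at 18.5, 16.2, 13.7 and 16.4 RPKM against 19.6 and 16.6 RPKM. Deficient tumor 1 held the highest Pds5b value of the 6, and deficient tumor 2 lay within the sufficient range. The log2 differences were 0.10 (95% interval -0.48 to 0.69, limma adjusted p = 0.938) and 0.15 (95% interval -0.33 to 0.63, limma adjusted p = 0.901). Pds5a and Pds5b hold the other matches to the miR-146a seed, and neither gene differed beyond the spread between tumors.

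None of the 8 partners passed the adjusted threshold of 0.05, which 0.0627% of the 12751 tested genes passed, or 8 genes. The study's own count test (DESeq) of 4 sufficient and 2 deficient tumors called more genes, so the share depends on the test. None of the 8 partners passed an unadjusted p of 0.05 in limma either, which 3.62% of tested genes did. Exact two-sided permutation tests gave p from 0.267 to 1 for the 8 partners, in a design of 4 against 2 that cannot go below 0.133. None of the 8 had groups that did not overlap, against 11.2% of all tested genes. The log2 difference was positive for 7 of the 8 and had a median of 0.071, within a range of -0.062 to 0.33. Positive values were the rule in these data, at 67.6% of all tested genes with a median of 0.13, and median-ratio scaling moved that median to -0.00081. After this scaling Pttg1 still read 3.37 to 6.003 in the sufficient tumors against 29.4 and 30.2 in the deficient tumors, while Smc1a, Smc3, Stag1, Stag2 and Pds5a turned slightly negative. The widest interval among the 8, that of Espl1, reaches 1.11, so a 2-fold rise of Espl1 lies within it, whereas the other 7 intervals end at or below 0.69.

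**Figure D2:**
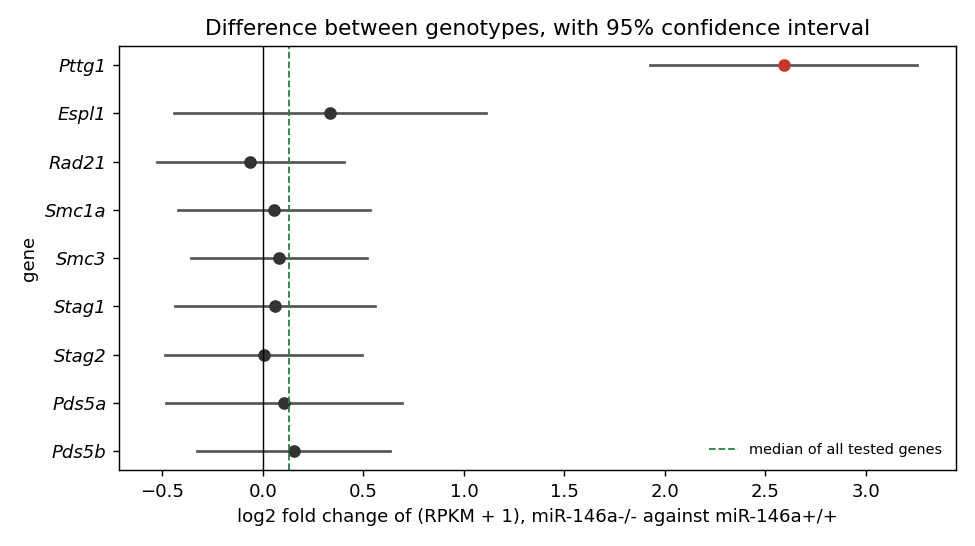
Difference between miR-146a-/- and miR-146a+/+ tumors in log2(RPKM + 1) for each gene, with its 95% confidence interval from limma (4 against 2 tumors); the dashed line is the median of all tested genes, 0.13. Pttg1, in red, is at 2.59; it was chosen on this difference, so its interval is a description and no test. The intervals of the 8 partners all include 0.

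Tumor site differed between the groups, and comparing thymic tumors alone gave larger differences for most partners. With the 2 thymic sufficient tumors as the only controls, 6 of the 8 partners (Espl1, Smc1a, Smc3, Stag1, Pds5a and Pds5b) were higher in both deficient tumors than in both controls. This arrangement was also seen in 32.5% of the 12286 genes tested there. Sufficient tumor 3 had a low median-ratio factor (0.834, against 1.02 to 1.13 in the other 5 tumors), and it held the lowest value of the 6 tumors in 4 of the 8 partners. After scaling, the arrangement held for Espl1 alone of the 8, against 19.5% of genes, and was no longer seen for the other 5 genes.

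Espl1 showed the widest of these site-matched differences. It was at 12.4 ± 3.47 RPKM (SD, n = 2) in the thymic sufficient tumors and at 21.4 ± 1.95 RPKM (SD, n = 2) in the deficient tumors, a log2 difference of 0.77. Its 95% interval was 0.065 to 1.47 and the limma adjusted p was 0.662, so it did not pass the threshold. Pttg1 read 2.62 in the same comparison, close to its value over all 6 tumors. The limma adjusted p of the other 7 partners ran from 0.676 to 0.981. The highest upper end of their 95% intervals was 1.01, for Pds5a, so a 2-fold rise of Pds5a lies within its interval in this comparison.

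Within the sufficient tumors, 5 of the 8 partners were higher in both neck node tumors than in both thymic tumors, an order seen in 27.9% of the 12255 genes tested. After median-ratio scaling it held for 3 of the 8, Espl1, Smc1a and Pds5a, against 20.1% of genes. Espl1 differed most between sites, with a mean of 23.0 RPKM in neck nodes and 12.4 RPKM in the thymus. Its log2 difference was 0.86, with a 95% interval of 0.20 to 1.53, an unadjusted limma p of 0.0186 and an adjusted p of 0.595. An unadjusted p under 0.05 was reached by 7.87% of tested genes. Pds5a followed at 0.53 (limma adjusted p = 0.650) and Smc1a at 0.36 (limma adjusted p = 0.697), while Stag2 was at -0.044 (limma adjusted p = 0.972). No partner passed the adjusted threshold for site, which 0.155% of tested genes passed. Age differed with site, at 16 and 18 weeks in neck node against 10 weeks in thymic tumors, and the 2 cannot be told apart.

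The genes differed in how much they varied from tumor to tumor. The coefficient of variation over the 4 sufficient tumors had a median of 14.0% for the 8 partners and of 26.1% for all tested genes. In mean level the partners stood at the 56.9 (Stag1) to 93.7 (Rad21) percentile of tested genes in these tumors. The comparison was not matched for level. Rad21 and Smc3 were among the steadiest, at the 6.37 and 6.76 percentile of this measure. Espl1 varied most among the partners, with a coefficient of variation of 36.8%, and Pttg1 stood near it at 33.4%. Pds5a followed at 23.4%, the 42.3 percentile, and Stag2 read 13.4% as deposited and 22.6% after median-ratio scaling.

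RPKM is scaled by gene length, so levels were set side by side between genes. The lengths used for the deposited values are not given in the sources used here, and another length for a gene would move its level alike in every tumor, so the order and the ratios below hold for the deposited scale. By mean log2(RPKM + 1) over the 6 tumors the order was Rad21, Pds5a, Smc1a, Smc3, Stag2, Espl1, Pds5b, Stag1 and Pttg1. Rad21 was the most abundant of the 9 in every tumor. Neighbors were compared within tumors by exact sign-flip tests, adjusted over 7 pairs. The pairs and their directions came from the means of the same 6 tumors, so these p-values describe the spread of each step and are no independent support for the order. Rad21 over Pds5a, Smc3 over Stag2, Stag2 over Espl1 and Pds5b over Stag1 each held in 6 of 6 tumors, with the smallest p that 6 tumors allow (exact p = 0.03125, adjusted 0.0547). Pds5a exceeded Smc1a in 5 of 6 tumors (exact p = 0.0625, adjusted 0.0875). Smc1a and Smc3 (4 of 6 tumors, exact adjusted p = 0.594) and Espl1 and Pds5b (4 of 6 tumors, exact adjusted p = 0.510) did not differ beyond their spread.

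The balance between paralogs overlapped between the 2 genotypes. Stag2 RNA was at 3.16 to 4.45 times the level of Stag1 RNA over the 6 tumors, a mean log2 ratio of 1.80 ± 0.18 (SD, n = 6). Pds5a RNA was at 2.76 to 3.96 times that of Pds5b, a mean log2 ratio of 1.67 ± 0.18 (SD, n = 6). Both ratios held in 6 of 6 tumors, each with an exact sign-flip p of 0.03125, the smallest possible, and 0.0938 after adjustment over the 6 tests of ratios. Smc1a and Smc3, which form the ring in equal parts as proteins, had RNA ratios of 0.911 to 1.10. Their mean log2 ratio of 0.027 ± 0.11 (SD, n = 6) gave an exact sign-flip p of 0.594, or 0.960 adjusted. Between genotypes the log2 ratios differed by -0.057 for Stag2 to Stag1, -0.049 for Pds5a to Pds5b and -0.026 for Smc1a to Smc3, with exact permutation p of 0.667, 0.800 and 1. After adjustment over the same 6 tests these exact p were 0.960, 0.960 and 1.

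**Figure D3:**
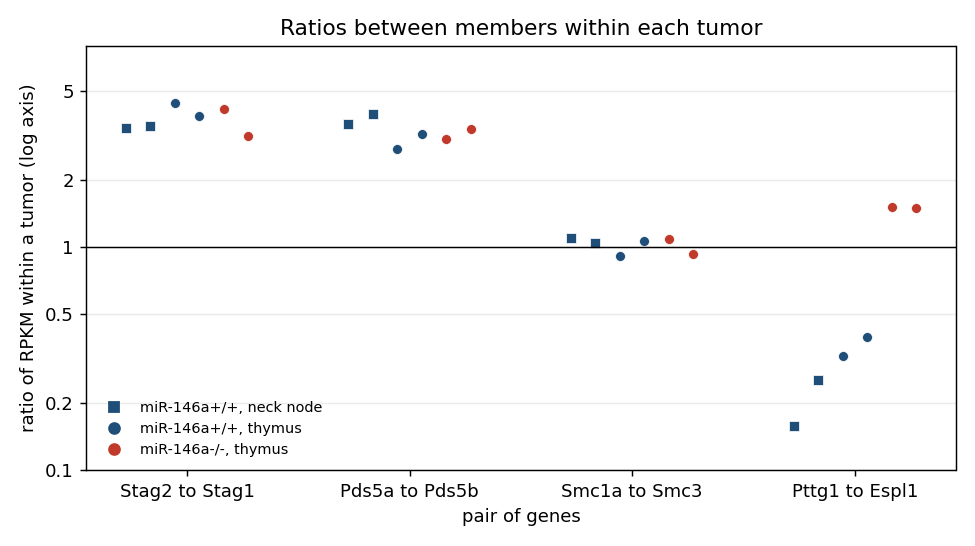
Ratio of RPKM within each tumor (log axis) for 4 pairs of genes; squares are neck node and circles thymic tumors, blue miR-146a+/+ and red miR-146a-/-. The paralog ratios and Smc1a to Smc3 overlap between genotypes, and Pttg1 to Espl1 is at 0.157 to 0.398 in blue and at 1.502 and 1.513 in red.

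Genes whose proteins load, acetylate, protect or remove cohesin were measured as RNA beside it. Of 19 such regulators, all tested, none passed the adjusted threshold or an unadjusted p of 0.05 in limma, 14 had a positive log2 difference and the median was 0.11. The 3 with the smallest p were Hdac8, Gsg2 and Chtf18, each with a limma adjusted p of 0.893. Hdac8, the deacetylase of Smc3, was at 5.71 ± 2.38 RPKM (SD, n = 4) in sufficient and 3.37 ± 0.440 RPKM (SD, n = 2) in deficient tumors, a log2 difference of -0.56. Both deficient tumors lay below all 4 sufficient tumors, as in 2.09% of tested genes. Sgol1, the shugoshin that protects centromeric cohesion, lay above all 4 as deposited, at 17.7 and 17.6 against at most 17.1 RPKM. An order of that kind was seen in 9.15% of tested genes. Median-ratio factors ran from 0.834 to 1.13 over the 6 tumors, a spread wider than this gap, so the order of Sgol1 depends on scaling. As deposited, 2 of the 19 did not overlap between groups, against 11.2% of all tested genes. Sgol1 was named after its values were seen. Gsg2, the haspin kinase that guards centromeric cohesion, and Chtf18, a part of the clamp loader used in cohesion, differed by 0.29 and 0.27 on the log2 scale. Germline cohesin genes were nearly silent: Rec8, Stag3 and Smc1b stayed at or below 0.304 RPKM and Rad21l was at 0 in every tumor.

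The machinery that degrades securin was likewise measured. For the anaphase-promoting complex, its activators and the spindle checkpoint, 25 of 26 listed genes were in the table, and all 25 were tested. None passed the adjusted threshold or an unadjusted p of 0.05 in limma, 15 had a positive log2 difference and the median was 0.028. Anapc13, a small subunit of the complex, differed by -0.32, and Fbxo5, its inhibitor Emi1, by -0.30. Anapc1, the scaffold subunit, differed by 0.23, and the limma adjusted p of all 3 was 0.893. Cdc20, the activator that brings the complex to securin, was at 60.6 ± 10.6 RPKM (SD, n = 4) and 61.0 ± 1.26 RPKM (SD, n = 2).

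Condensin and the Smc5/6 complex, relatives of cohesin, gave 8 positive log2 differences of 10 and a median of 0.13, with none past the adjusted threshold or an unadjusted p of 0.05 in limma. Ncapd3, Ncapg2 and Smc6 had the smallest p, with log2 differences of 0.40, 0.38 and 0.26 (limma adjusted p = 0.893 for each). Ncapg2 and Smc6 were each highest in deficient tumor 2, at 37.02 and 53.1 RPKM against 24.9 and 31.0 RPKM in deficient tumor 1.

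Genes of proliferation overlapped between the genotypes in their sum. Of 19 genes, none passed the adjusted threshold or an unadjusted p of 0.05 in limma, 14 had a positive log2 difference, and the median was 0.11. Mki67, the antigen of dividing cells, was at 192, 188, 134 and 94.2 RPKM in the sufficient tumors, against 185 and 313 RPKM in the deficient ones. Deficient tumor 2 held the highest Mki67 value, and deficient tumor 1 lay within the sufficient range. The log2 difference was 0.72, with a limma adjusted p of 0.893. Ccna2 (cyclin A2) and Aurkb (a mitotic kinase) differed by 0.35 each, with the same adjusted p. Summed over the list, the sufficient tumors held 1961, 1755, 1381 and 1260 RPKM and the deficient tumors 1785 and 1566 RPKM, so the groups overlapped in total proliferation RNA. As deposited, both deficient sums lay above those of both thymic sufficient tumors. The median-ratio factor was 0.834 in sufficient tumor 3 against 1.03 and 1.13 in deficient tumors 1 and 2, so this order depends on scaling. With thymic tumors only the list median was 0.38, against 0.19 for all tested genes, and no gene of the list was called.

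**Figure D4:**
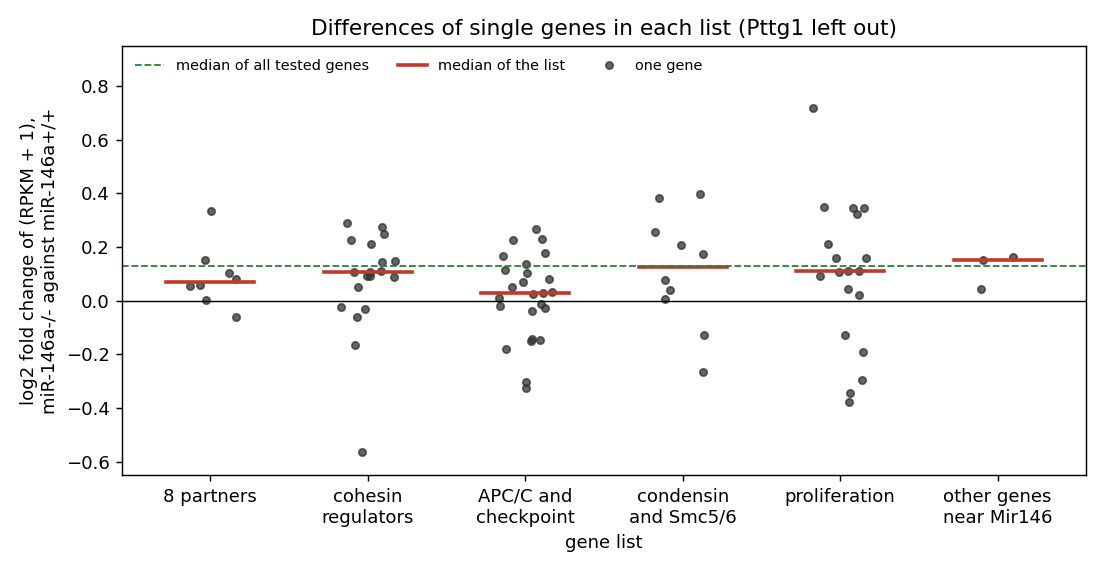
Difference between genotypes in log2(RPKM + 1) for each tested gene (points) of the 8 partners, the 4 pathway lists and the 3 tested neighbors of Mir146, with the median of each list in red and that of all tested genes, 0.13, as a dashed line. List medians run from 0.028 to 0.15, and the lowest and highest genes are Hdac8 at -0.56 and Mki67 at 0.72.

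The genes whose levels over the 6 tumors were most like those of Pttg1 came from other pathways. Pearson's r with Pttg1 on the log2 scale was 0.98 for Gm20496, Tmod4 (a tropomodulin) and Kremen1, and 0.97 for Tmub1 and Vmp1 (a membrane protein of autophagy). The lowest values were -0.98 for the pseudogene Gm14036, -0.97 for Satb1 (a chromatin organizer of lymphocytes) and -0.96 for Ttc30a1. All 8 separate the 2 deficient from the 4 sufficient tumors, which with 6 tumors is enough for a high r, so these are descriptions without a p. The 8 partners had r from -0.26 to 0.47 with Pttg1.

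Egr1, the transcription factor whose targets the study examined, was at 0.523, 0.406, 0.418 and 0.284 RPKM in the sufficient tumors, against 2.14 and 1.38 RPKM in the deficient ones. Both deficient tumors lay above all 4 sufficient tumors, an order seen in 9.15% of tested genes. The log2 difference of 0.96 did not pass the threshold (limma adjusted p = 0.796). All 4 sufficient values were below the pseudocount of 1, which makes this difference smaller than that of the RPKM values themselves. Promoters from 250 bases before to 50 bases after the start were at hand in RefSeq (GRCm38.p6) for 7 of the 9 genes, all but Rad21 and Stag2. The EGR1 motifs GCGTGGGCG and GCGGGGGCG were sought on both strands. They occurred in 0 of the 7 promoters and in 3.47% of all 32851, which says only that these letters are not in these windows. The study used another measure, EGR1 binding sites from ChIP-seq in human cell lines, and showed Pttg1 among the genes with such sites. Its own count test of the RNA-sequencing (DESeq), another test than the one used here, had both Egr1 and Pttg1 among the differentially regulated genes. It also reported significant differences of Egr1 and Pttg1 between genotypes by RT-qPCR in a larger set of tumors.

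The make-up of the tumors was gauged from marker genes. B-cell markers had a sum over 8 genes of 1349 to 2045 RPKM in sufficient and of 1379 and 2248 RPKM in deficient tumors. This was the largest marker sum in each tumor except sufficient tumor 1, where neutrophil markers summed to 1589 against 1349 RPKM. All 10 T and NK cell markers had a negative log2 difference (median -0.61, sums of 21.5 to 68.1 against 15.3 and 18.5 RPKM), and 8 of 9 tested macrophage markers a positive one (median 0.94, sums of 131 to 303 against 225 and 272 RPKM). Of the 9 macrophage markers, 4 were above all 4 sufficient tumors in both deficient tumors (9.15% of tested genes). Of the 10 T and NK cell markers, 2 were below them (2.09%). Lyz2, the macrophage marker with a negative difference, was at 93.3 to 271 against 139 and 149 RPKM. Neutrophil markers summed to 1589 and 1619 RPKM in the neck node tumors, 233 and 200 RPKM in the thymic sufficient tumors and 106 and 269 RPKM in the deficient ones. Erythroid markers summed to 22.3 to 195 against 14.7 and 47.3 RPKM. Stromal markers reached 12.5 and 20.5 RPKM and thymic epithelial markers 0.906 and 2.32 RPKM at most in the 2 groups. Salivary markers reached 56.0 RPKM in neck node tumors and 0.191 RPKM elsewhere. In bulk RNA, fewer cells of a type and less RNA per cell cannot be told apart, and the part of these cells in the Pttg1 and Espl1 values was not tested. Y-linked Ddx3y, read beside the X-linked Smc1a and Stag2, was at 17.9 to 23.0 RPKM in the sufficient tumors, 0.130 RPKM in deficient tumor 1 and 24.6 RPKM in deficient tumor 2, which goes against the female label of the last. Pttg1 was at 30.3 and 34.2 RPKM in these 2 deficient tumors. X-linked Xist was listed at 1585 to 2203 RPKM in the sufficient tumors, 1240070 in deficient tumor 1 and 1819 in deficient tumor 2. This scale is too far from other genes to be read as a level, but between tumors it sets deficient tumor 1 apart, as Ddx3y does.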

How the data were processed

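Per the labels and the study's methods, the authors made TruSeq RNA libraries with 2 technical replicates per tumor, mapped single-end reads to GRCm38 with STAR 2.3.0, counted them in Ensembl genes with HTSeq 0.5.4p3 and tested counts with DESeq (1.12.1 in the labels, whereas the methods name another version). The authors deposited RPKM values for 38293 genes in 6 tumors. The gene lengths and library totals behind them are not given in the sources used here, and no count test was run. Library preparation did not mark strand. Antisense genes absent from the table overlap 374 of 19335 exon bases of Pds5a and 28 of 8273 of Stag2.

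From these values, log2(RPKM + 1) was fitted with limma 3.58.1 (trend) in R 4.3.3 for genes that reached 0.5 RPKM in 2 or more tumors. This gave 12751 genes for 4 sufficient against 2 deficient tumors and 12255 for 2 neck node against 2 thymic sufficient tumors. P-values are two-sided and Benjamini-Hochberg adjusted over all tested genes, with a threshold of 0.05. Single values were compared with exact permutation or sign-flip tests, checked against SciPy 1.17.1. Simulated data of the genotype design, with 200 changed genes among 12751, gave back 19.9% of 2-fold, 76.0% of 4-fold and 93.3% of 8-fold changes, with 5.5 false calls on average.

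The step in RPKM worth 1 read was sought in low values of single-exon genes, taking 99 bases (a read of 100 less 1) off the merged exon length. Each library gave a pair of steps, and the range of reads printed spans them. Intervals cover the spread between tumors only.

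Named genes are the 9 members, the 3 genes of each pathway list with the smallest p where none passed, tested genes that start within 1 Mb of Mir146, the 5 most like and 3 most unlike Pttg1, and Egr1, Mir146, Xist and Ddx3y. Correlations over the 4 sufficient tumors alone were planned but are not reported, as 4 tumors are too few. Cdc20, Sgol1 and the germline genes were named after their values were seen. The members, lists and tests were chosen with earlier results of these data known. Alternatives changed the filter, pseudocount, scaling, prior, tumors, site term and replicate block. The overlap counts among thymic tumors and after scaling were added after their values were seen.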

Additional observations from a re-analysis of the deposited data

How the results depend on the processing

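Only 2 deficient tumors limit every genotype value, and no counts were at hand for a count model. The 8 calls between genotypes became 3 with thymic tumors only or with a term for site, 1 with the replicate block, and 4 to 9 when a tumor was left out (4 without sufficient tumor 3, 5 without either deficient tumor). The 19 calls between sites became 0 with no filter on low values (limma, 1388 at an unadjusted p under 0.05), 11 with quantile normalization and 11 to 67 when a tumor was left out (32, 67 and 11 without sufficient tumors 1, 2 and 4). The cause of these moves was not tested. No partner, gene of the 4 pathway lists with tested genes or tested neighbor of Mir146 was called between genotypes in any of the 17 alternatives. Pttg1 stayed at 1.96 or above, its value with a pseudocount of 5, where Pttg1 to Espl1 read 1.69. Several small differences changed sign, none of them past the threshold. Median-ratio scaling gave -0.10 for Smc1a, -0.075 for Smc3, -0.085 for Stag1, -0.15 for Stag2, -0.052 for Pds5a and, between sites, -0.054 for Pttg1. Quantile normalization gave -0.014 for Smc1a, -0.10 for Stag1, -0.10 for Stag2 and, between sites, -0.058 for Pttg1. Thymic tumors only and the site term each gave 0.025 for Rad21 and -0.019 for Stag2. The replicate block gave -0.098 for Espl1, -0.12 for Smc1a, -0.039 for Smc3, -0.039 for Stag1 and -0.16 for Pds5a. Leaving out a tumor gave ranges across 0 of -0.22 to 0.095 for Rad21, -0.029 to 0.12 for Smc1a, -0.16 to 0.17 for Stag2 and -0.063 to 0.20 for Pds5a, and between sites of -0.30 to 0.41 for Pttg1 and -0.22 to 0.13 for Stag2. List medians moved under median-ratio scaling to -0.050 for cohesin regulators and -0.12 for the anaphase-promoting complex, with thymic tumors only or the site term to 0.17 for that complex and 0.34 for condensin, and with the block to -0.092 for condensin. The proliferation median, 0.11, moved within its spread between tumors to 0.38 with thymic tumors only or the site term and to -0.16 with the block. The median of all tested genes, 0.13, moved as well. It was -0.00081 with median-ratio scaling, 0.19 with thymic tumors only or the site term and 0.072 with the block. With thymic tumors only, Pds5a to Pds5b differed between genotypes by 0.12 and Smc1a to Smc3 by 0.033, and the order of Smc1a over Smc3 (-0.0066, also their mean log2 ratio) and of Espl1 over Pds5b (-0.024) turned. Leaving out a tumor gave genotype differences of -0.14 to 0.030 for Pds5a to Pds5b, -0.13 to 0.078 for Smc1a to Smc3 and -0.25 to 0.13 for Stag2 to Stag1. The replicate numbers give only 2 pairs, whose deviations correlated at 0.0192 and 0.213 over genes, and nothing ties a number to a shared litter or day, so the samples share only a number.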
